A study of Mus musculus with 6 samples.

Results

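The genes of lower glycolysis and the lactate dehydrogenases were compared between wild-type and Drp1 knockout (KO) mouse T cells. Drp1 is the GTPase that divides mitochondria. The 10 genes were chosen by name, from the isomerase that feeds lower glycolysis to the enzyme that makes lactate: Tpi1, Gapdh, Pgk1, Pgam1, Eno1, Eno2, Eno3, Pkm, Ldha and Ldhb. They are 10 of the 45808 rows of the count table, and all 10 passed the filter on low counts. In Drp1 KO cells 8 of the 10 were lower than in wild type, none was higher, and Eno3 and Ldhb did not pass the test. Over all 14209 genes tested, 26.1% were called lower and 26.7% higher. The median log2 fold change, KO over wild type, was -0.46 for the 10 genes and 0.01 for all genes tested.

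T cells came from the spleen of C57BL/6 mice aged 2 months and were activated in vitro with antibodies to CD3 and CD28 in the presence of the growth factor IL-2. There were 3 libraries of wild-type T cells and 3 of KO T cells, whose genotype is given as Drp1-/-. Both groups shared strain, age, tissue and activation, so every comparison here is within activated cells. They differed in sex-linked RNA. Xist, the RNA that coats the inactive X chromosome, was near absent in every wild-type library and high in every KO library (values below, with Pgk1). Each KO library also held Y-linked RNA, as the wild-type libraries did. For none of the genes studied can this difference be told apart from genotype. The labels give the KO only as a genotype: they name no Cre driver, promoter or deleted exon, and they do not say whether the replicates are separate mice or cultures. The p-values therefore measure the spread between these libraries, which may be technical.

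In lower glycolysis, the triose phosphates made from glucose are oxidised, pass phosphate to ADP and end as pyruvate. Lactate dehydrogenase then turns pyruvate into lactate and returns the NAD+ that the oxidation step needs. T cells raise this route when they are activated, and it is known for running alongside mitochondrial respiration even when oxygen is plentiful. Myc and the hypoxia-inducible factor HIF-1 are the textbook activators of its genes. HIF-1 binds sites built around ACGTG or GCGTG, and the Myc-Max pair binds the E-box CACGTG.

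Promoter stretches of some of these genes are shown because most of the genes fell together in KO, and those of Eno3 and Ldhb because these were not called. For Ldha, the first of its windows is shown. They are RefSeq sequences of GRCm38.p6, the assembly of the mm10 files, and end at the annotated start, with the coding strand printed from 5′ to 3′. The Eno2 stretch leaves out bases that overlap an annotated exon. RefSeq windows matched all 10 genes, with 14 windows in all. Capitals mark ACGTG or GCGTG on either strand, so the reverse complements CACGT and CACGC are in capitals too. A palindromic CACGTG holds ACGTG on both strands and counts as 2 matches.
Gapdh (chr6:125165774-125166023, minus strand): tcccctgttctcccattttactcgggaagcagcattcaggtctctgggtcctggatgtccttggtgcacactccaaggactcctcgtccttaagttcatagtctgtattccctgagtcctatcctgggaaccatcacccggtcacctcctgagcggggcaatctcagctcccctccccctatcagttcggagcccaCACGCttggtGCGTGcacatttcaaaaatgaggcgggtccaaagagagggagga
Pgk1 (chrX:106186850-106187099, plus strand): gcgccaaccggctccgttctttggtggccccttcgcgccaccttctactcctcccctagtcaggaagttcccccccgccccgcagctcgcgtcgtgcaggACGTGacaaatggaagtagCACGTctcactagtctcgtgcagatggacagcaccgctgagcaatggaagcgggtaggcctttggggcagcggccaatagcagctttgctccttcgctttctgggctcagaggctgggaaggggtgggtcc
Pgam1 (chr19:41911621-41911870, plus strand): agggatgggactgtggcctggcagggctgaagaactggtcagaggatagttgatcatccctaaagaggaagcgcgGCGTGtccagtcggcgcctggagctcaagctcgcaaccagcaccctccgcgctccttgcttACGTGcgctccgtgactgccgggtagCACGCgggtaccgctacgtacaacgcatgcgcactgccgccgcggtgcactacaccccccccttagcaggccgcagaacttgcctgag
Ldha (chr7:46845554-46845803, plus strand): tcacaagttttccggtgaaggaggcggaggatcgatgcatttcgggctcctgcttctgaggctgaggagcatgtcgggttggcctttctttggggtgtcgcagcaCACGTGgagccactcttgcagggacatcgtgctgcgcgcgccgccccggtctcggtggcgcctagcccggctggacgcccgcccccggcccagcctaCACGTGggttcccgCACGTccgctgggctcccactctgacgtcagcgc
Eno2 (chr6:124769674-124769862, minus strand): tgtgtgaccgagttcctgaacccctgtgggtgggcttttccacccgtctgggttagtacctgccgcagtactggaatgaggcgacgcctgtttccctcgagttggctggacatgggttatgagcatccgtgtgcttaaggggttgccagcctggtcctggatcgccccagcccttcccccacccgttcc
Eno3 (chr11:70656926-70657175, plus strand): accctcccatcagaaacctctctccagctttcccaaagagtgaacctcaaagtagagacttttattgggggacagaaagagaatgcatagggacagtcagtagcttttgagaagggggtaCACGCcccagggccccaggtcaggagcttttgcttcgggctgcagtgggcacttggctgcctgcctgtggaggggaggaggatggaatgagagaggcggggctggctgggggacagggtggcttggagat
Ldhb (chr6:142507958-142508207, minus strand): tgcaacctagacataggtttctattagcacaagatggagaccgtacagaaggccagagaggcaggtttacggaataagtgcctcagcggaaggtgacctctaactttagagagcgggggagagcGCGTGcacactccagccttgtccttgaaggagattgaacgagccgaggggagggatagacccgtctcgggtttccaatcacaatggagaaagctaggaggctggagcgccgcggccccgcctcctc

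The 250 bases before the start held ACGTG or GCGTG in at least 1 window of 8 of the 10 genes, against 41.5% of the 27025 genes with a window. By window, 11 of 14 held a match, against 38.6% of 32851. Windows of a gene can overlap and are not independent. Windows 2 and 3 of Eno1 held the same 2 GCGTG sites, and 245 and 250 of their 250 bases were annotated exon. Pkm held a match in window 2 but not in window 1. ACGTG was found for 4 of the genes, against 18.5% of all genes, and GCGTG for 6, against 30.9%. The E-box CACGTG was found for Ldha alone of the 10, in the window printed above, against 6.86% of all genes. Eno3 and Ldhb, which were not called, each held 1 GCGTG. Tpi1 and Eno2, which fell, held neither in their window. A match is a run of letters and not a measured binding site, and these data hold no measure of binding.

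Counts are given as CPM, counts scaled to a common library size with TMM factors. A gene was called when its edgeR quasi-likelihood p, adjusted over all genes tested by Benjamini-Hochberg, was under 0.05. Of all calls 50.6% were higher in KO, and with library totals alone as the scaling 62%. All 3 KO libraries lay below all 3 wild-type libraries for 8 of the 10 genes, against 30.8% of all genes tested.

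**Figure D1:**
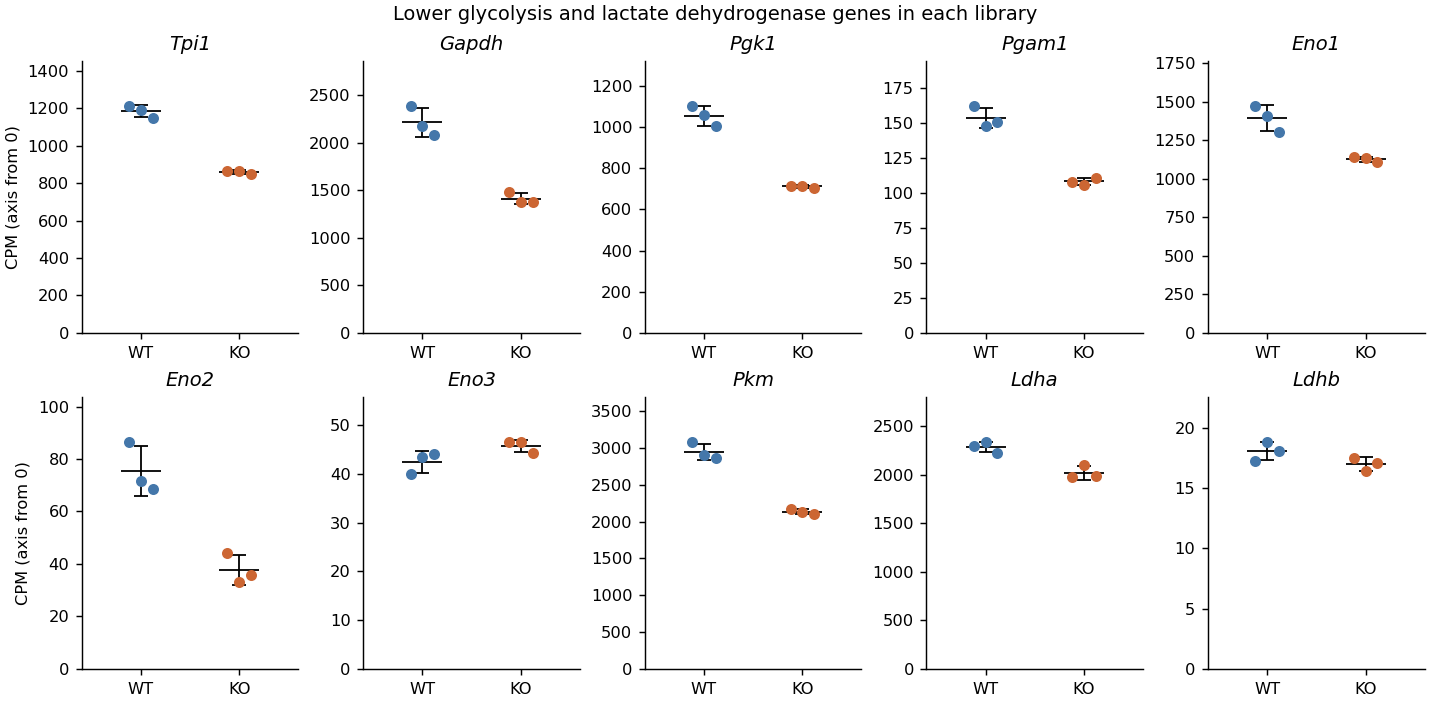
Each panel plots the CPM of 1 gene in the 3 wild-type (WT) and 3 KO libraries, with bars for the mean and SD and every axis starting at 0. The groups are apart in 9 panels, with KO above wild type for Eno3, and overlap for Ldhb.

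Triose phosphate isomerase, Tpi1 (chromosome 6, 124810586 to 124814296), makes the products of the aldolase reaction into the single form that goes on down the pathway. It stood at 1210, 1191.9 and 1148.9 CPM in wild-type replicates 1, 2 and 3 and at 864, 864 and 848 CPM in the KO libraries. The KO libraries lay close together and well below the lowest wild-type value. The mean fell from 1183.6 ± 31.4 to 859 ± 9.41 CPM (SD, n = 3 each), with a log2 fold change of -0.46 ± 0.04 (SE; edgeR adjusted p = 3.49e-05).

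Gapdh (chromosome 6, 125161715 to 125166467), the dehydrogenase that oxidises glyceraldehyde phosphate and makes NADH, fell more than Tpi1 in size of fold change. Its wild-type libraries held 2380.2, 2175.6 and 2078 CPM, and its KO libraries 1476.9, 1378.2 and 1372.2 CPM. Even the lowest wild-type library was far above the highest KO library. The mean of 2211.3 ± 154 CPM in wild type became 1409.1 ± 58.8 CPM in KO (SD, n = 3 each); it fell by 36.3%. On the log2 scale the change was -0.65 ± 0.06, with a 95% interval of -0.77 to -0.53 (edgeR adjusted p = 3.49e-05).

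Phosphoglycerate kinase, Pgk1 (chromosome X, 106187100 to 106203699), catalyses the first ATP-yielding step. Counts gave 1100.2, 1059.2 and 1005.3 CPM in the wild-type libraries, and 714, 715 and 705 CPM in those of KO. The KO libraries differed from each other by less than the wild-type libraries did. The means were 1054.9 ± 47.6 and 711 ± 5.51 CPM (SD, n = 3 each), and the log2 fold change was -0.57 ± 0.04 (edgeR adjusted p = 2.67e-05). Pgk1 is X-linked, and the groups also differed in sex-linked RNA. Xist, the RNA that coats the inactive X chromosome, was at 0 to 0.101 CPM in the wild-type libraries but at 417 to 472 CPM in those of KO. Of 457 tested genes of chromosome X, 25.6% were called lower, close to the 26.1% over all genes. Y-linked RNA was read in all 6 libraries, with Ddx3y at 106 to 153 CPM (wild type) and 69.7 to 77.2 CPM (KO), and all 4 Y-linked genes listed were called lower. Genotype and this difference in sex-linked RNA cannot be told apart.

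Phosphoglycerate mutase, Pgam1 (chromosome 19, 41911923 to 41918660), moves the phosphate within phosphoglycerate. Per kilobase of transcript its count was well below those of the genes of the steps on either side, Pgk1 and Eno1. Wild-type libraries had 162, 148 and 151 CPM and KO libraries 108, 106 and 111 CPM, so the groups were well apart. The log2 fold change was -0.50 ± 0.05 (95% interval -0.62 to -0.39, edgeR adjusted p = 6.63e-05), from 154 ± 7.25 to 108 ± 2.9 CPM (SD, n = 3 each).

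Enolase, which removes water from phosphoglycerate to make phosphoenolpyruvate, is encoded by 3 genes here, of which 2 were called lower and 1 was not called. Eno1 (chromosome 4, 150236721 to 150248879) encodes the widely expressed form. It held 1470.1, 1409.8 and 1303.4 CPM in wild type, against 1139.3, 1133.8 and 1109.3 CPM in KO. The lowest wild-type library stood nearest to the KO libraries without meeting them. The mean went from 1394.4 ± 84.4 to 1127.5 ± 16 CPM (SD, n = 3 each), and the log2 fold change was -0.31 ± 0.05 (edgeR adjusted p = 0.000576).

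Eno2 (chromosome 6, 124760053 to 124769673) encodes the form best known from neurons. Its level was 86.3, 71.7 and 68.5 CPM in wild-type cells, and 44.1, 33 and 35.7 CPM in KO cells. All 3 wild-type libraries were above all 3 KO libraries, and wild-type replicate 1 stood above the other two. Its mean fell by 50.1%, the most among the 10 genes. The log2 fold change was -1.0 ± 0.11, with an interval of -1.25 to -0.75 (edgeR adjusted p = 9.75e-05). Without wild-type replicate 1 it was -0.90.

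Eno3 (chromosome 11, 70657202 to 70662513) encodes the form best known from muscle. Wild-type libraries held 39.9, 43.5 and 44 CPM and KO libraries 46.4, 46.4 and 44.3 CPM. Every KO library was above every wild-type library, by a narrow margin. The log2 fold change of 0.10 ± 0.06 (interval -0.02 to 0.23) did not pass (edgeR adjusted p = 0.149). Scaling by library totals alone gave 0.18, called higher (edgeR adjusted p = 0.0393). Leaving out wild-type replicate 1 gave 0.06 (edgeR adjusted p = 0.35).

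Pyruvate kinase, Pkm (chromosome 9, 59656368 to 59679375), makes pyruvate and ATP from phosphoenolpyruvate. Wild-type libraries had 3073.4, 2899.1 and 2858.9 CPM and KO libraries 2170.6, 2130.2 and 2099.1 CPM. The gap between the groups was wider than the range within either. The means were 2943.8 ± 114 and 2133.3 ± 35.9 CPM (SD, n = 3 each), with a log2 fold change of -0.46 ± 0.04 (edgeR adjusted p = 4.14e-05). The M1 and M2 forms, made by a choice between exons of Pkm, share this row and could not be separated. Of 4 genes for splicing factors that act on that choice, Hnrnpa2b1 was called higher (log2 fold change 0.55 ± 0.05). Hnrnpa1 (-0.08 ± 0.04, edgeR adjusted p = 0.129), Srsf3 (0.18 ± 0.09, adjusted p = 0.118) and Ptbp1 were not called. That count of 1 became 3 without wild-type replicate 1 and with library totals alone.

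Lactate dehydrogenase A, Ldha (chromosome 7, 46841475 to 46855627), encodes the subunit that favours making lactate. It was at 2294.2, 2333.8 and 2229.6 CPM in wild type, against 1978.9, 2106.4 and 1985.3 CPM in KO. The groups did not overlap, but the gap between them was small beside those of Gapdh and Pkm. The mean fell by 11.5%, from 2285.9 ± 52.6 to 2023.5 ± 71.8 CPM (SD, n = 3 each). The log2 fold change of -0.18 ± 0.04 had an interval of -0.27 to -0.08 (edgeR adjusted p = 0.00545). That interval does not meet those of Tpi1, Gapdh, Pgk1, Pgam1, Eno2 and Pkm, and it meets that of Eno1 (-0.42 to -0.20). The differences between genes were not tested. With library totals alone the change was -0.10 and was not called (edgeR adjusted p = 0.0523).

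Lactate dehydrogenase B, Ldhb (chromosome 6, 142490249 to 142507957), encodes the subunit common in tissues that use lactate. Wild-type libraries held 17.3, 18.8 and 18.1 CPM and KO libraries 17.5, 16.4 and 17.1 CPM. The groups overlapped. The log2 fold change was -0.09 ± 0.07 (edgeR adjusted p = 0.281), and its 95% interval of -0.24 to 0.06 leaves room for a small change in either direction.

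**Figure D2:**
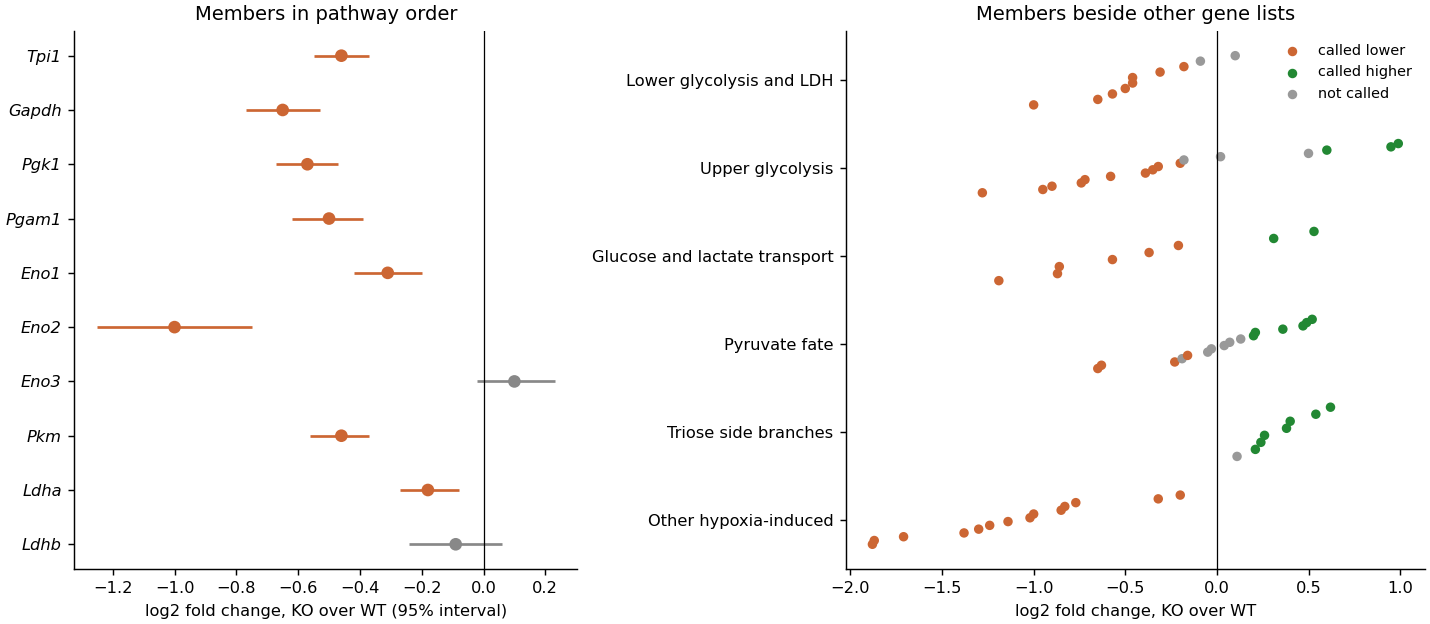
The left panel plots the log2 fold change, KO over wild type (WT), with its 95% interval for the 10 genes in pathway order. The right panel plots each tested gene of 6 lists by its fold change, coloured by its call: the 10 genes run from -1.0 for Eno2 to 0.10 for Eno3, beside lists that lie mostly to the left (other hypoxia-induced genes) or to the right (side branches from the triose phosphates).

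Wild-type replicate 1 was the highest wild-type library for 7 of the 8 genes that fell, all but Ldha. The same library stood apart over all genes, at -44.9 on the first principal component (74.7% of variance) where the other wild-type libraries were at -20.9 and -20.2. Without it, 8 of the 10 genes were again called lower and the median was -0.44.

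The order of levels among the genes was taken from CPM per kilobase of the principal transcript. In wild type the order was Gapdh (1557.2 ± 109), Ldha (1294.4 ± 29.8), Pkm (1210.4 ± 46.9), Tpi1 (737 ± 19.6), Eno1 (688 ± 41.6), Pgk1 (578 ± 26.1), Pgam1 (86.5 ± 4.08), Eno3 (27.2 ± 1.46), Eno2 (27.0 ± 3.4) and Ldhb (13.9 ± 0.579). Ldha and Pkm, Tpi1 and Eno1, and Eno3 and Eno2 were neighbours whose library values overlapped. In KO the level of Ldha, 1145.8 ± 40.7 CPM per kilobase, came first, above Gapdh at 992 ± 41.4 in all 3 libraries. Eno1 (556 ± 7.88) was then above Tpi1 (534 ± 5.86), and Eno3 (29.2 ± 0.762) above Eno2 (13.5 ± 2.06), which overlapped Ldhb (13.0 ± 0.433). The place of Gapdh rests on its length: the principal transcript has 1420 bases and the longest annotated one 3289. Reads that match both a gene and a near-identical copy may also be missing from its count. Copies matched Gapdh at 100% identity over 1002 bases and Pgam1 over 765 bases. Differences in level between genes may thus lie partly in what could be counted.

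**Figure D3:**
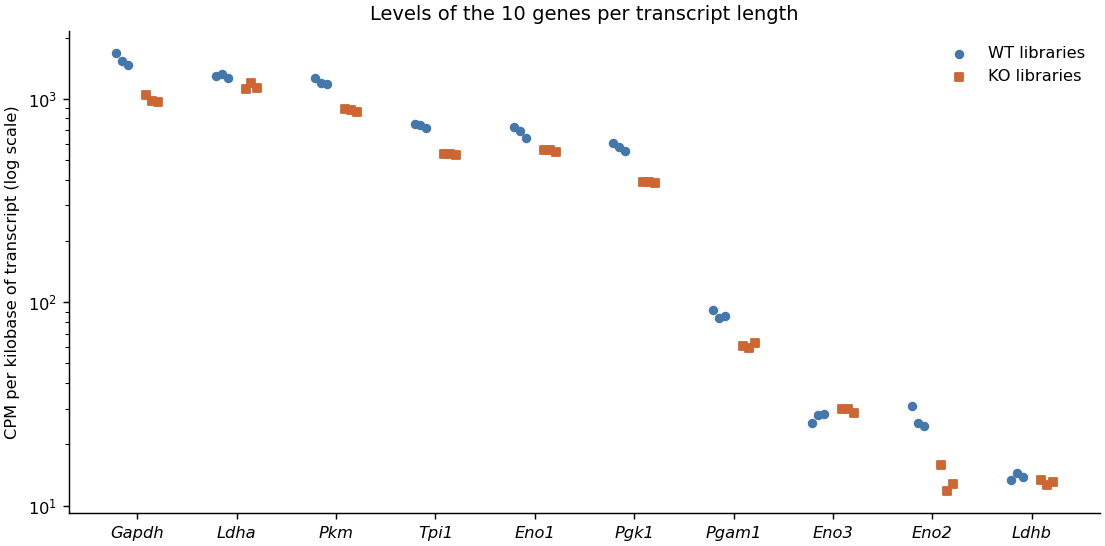
Levels of the 10 genes are plotted as CPM per kilobase of principal transcript on a log axis, 1 point per library, ordered by the wild-type (WT) mean. The 6 most abundant genes lie far above the other 4 in all libraries, and Ldha takes the top place from Gapdh in KO.

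Ratios between genes inside a library do not depend on the scaling between libraries. A share of all counts does, as it amounts to scaling by library totals alone. The 10 genes took 1.12, 1.12 and 1.08% of all counts in wild type and 0.881, 0.875 and 0.854% in KO. The groups did not overlap (1.11 ± 0.0247 against 0.87 ± 0.0141%, SD, n = 3 each; exact permutation test, 2-sided p = 0.1, the smallest that 3 against 3 can give). Pkm, Ldha and Gapdh together held 65.3 to 65.8% of these counts in every library. That range is for their sum and not for each of them. Without a correction for length, there were 0.964, 1.07 and 1.07 Ldha counts per Gapdh count in wild type and 1.34, 1.53 and 1.45 in KO. This ratio was chosen after the values were seen and is a description.

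Among the enolases, per kilobase of the longest transcript, Eno2 made up 3.95, 3.42 and 3.52% of the sum in wild type and 2.59, 1.97 and 2.17% in KO. The share was lower in all 3 KO libraries (3.63 ± 0.281 against 2.24 ± 0.32%, SD, n = 3 each; exact permutation p = 0.1, the smallest possible). The Eno3 share, chosen after the values were seen, was 3.26, 3.72 and 4.05% in wild type and 4.88, 4.94 and 4.82% in KO. Eno1 thus carried most of the enolase RNA in both groups. Ldhb made up 1.04, 1.11 and 1.12% of lactate dehydrogenase counts per kilobase in wild type and 1.22, 1.07 and 1.18% in KO. Here the groups overlapped (exact permutation p = 0.3).

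**Figure D4:**
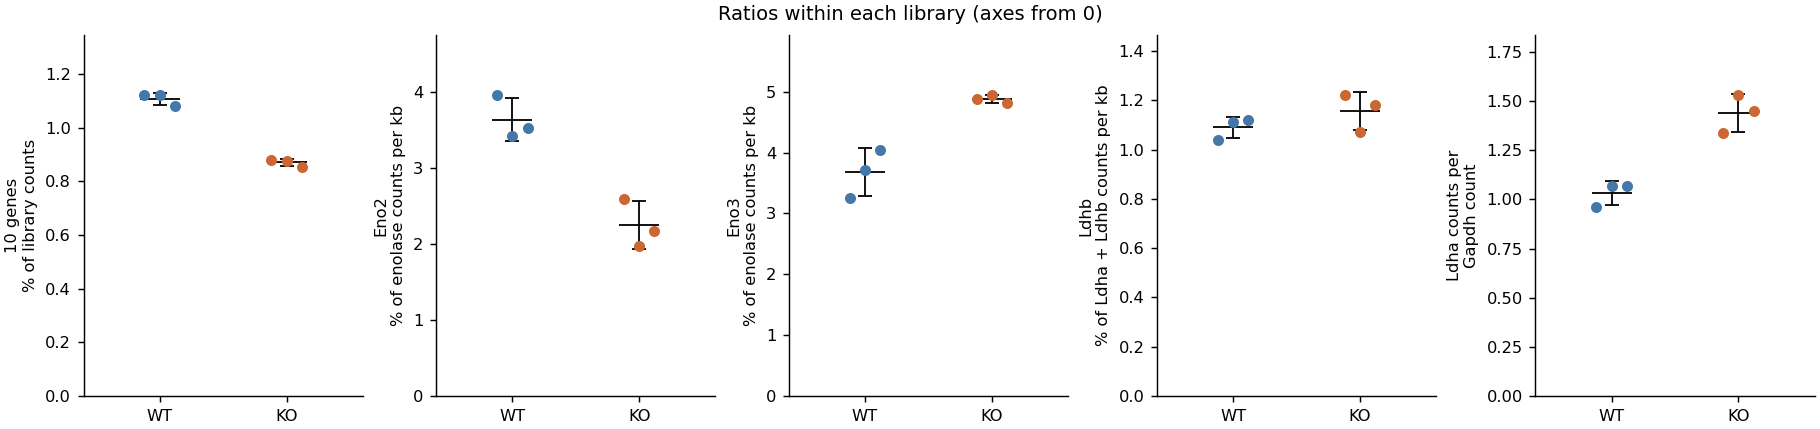
Each panel plots 1 ratio per library in wild type (WT) and KO, with bars for the mean and SD and axes from 0: the 10 genes' percent of counts, the Eno2 and Eno3 percent of enolase counts per kilobase, the Ldhb percent of lactate dehydrogenase counts per kilobase, and Ldha counts per Gapdh count. The groups overlap only in the Ldhb panel.

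Gapdh is a gene with many near-identical processed copies, so its count could be split with theirs. A search of the annotated transcripts found 171 copies, of which 156 were rows of the table with 29259 counts in all, 8.93% of the Gapdh count. Per library the copies held 9.99, 8.68 and 8.55% of the Gapdh count in wild type and 8.53, 9.04 and 8.89% in KO. Of 135 copies tested, 83 were called lower, none higher, and their median log2 fold change was -0.69, near the -0.65 of Gapdh itself. These rows may hold reads of Gapdh and are no separate evidence. For the other 9 genes the copies held at most 0.52% of the gene's count, which was the value for Pgam1. Reads that match a gene and a copy equally may be missing from both rows. A low count on the copies thus does not show that a gene lost no reads. Pgam1-ps2, for 1, matched Pgam1 at 100% identity over 765 bases. Adding the copies to their genes left 8 called lower.

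Pgk2 and Ldhc, the germ cell forms, and Pklr, the liver and red cell pyruvate kinase, had 0 counts in all 6 libraries. There 3 counts are 0.0864 to 0.121 CPM by library totals, without TMM factors. Gapdhs, the sperm form of Gapdh, was at 1.07 CPM in wild type and was not called (edgeR adjusted p = 0.0747). Of 12 isozymes made for other tissues and related enzymes, 6 were tested: 2 were called lower, 1 higher and 3 not, with a median of -0.04. That is 33.3% lower and 16.7% higher, beside 26.1% and 26.7% of all genes tested. Ldhd, for D-lactate, fell by 0.79 ± 0.13 on the log2 scale. Pgp, a phosphatase that clears phosphoglycolate, fell by 0.25 ± 0.06, and Minpp1, which acts on inositol and bisphosphoglycerate phosphates, rose by 0.29 ± 0.06.

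The 10 genes have 18 other counted genes as their nearest neighbours, of which 7 were called lower, 4 higher and 7 not. Among all genes tested 26.1% were called lower and 26.7% higher. Eno2 and Tpi1 are neighbours of each other, 40913 bases apart on chromosome 6. Usp5, 723 bases from Tpi1, changed by -0.13, and Atn1, 3529 bases from Eno2, by -0.21, both called lower. Beside Gapdh, Ncapd2 changed by -0.11 (called lower) and Nop2, for a ribosome assembly factor, by 0.89 (called higher). Both neighbours of Pgam1 were called higher, Rrp12 by 0.62 and Exosc1 by 0.80 on the log2 scale. Parp6, 6083 bases from Pkm, had a fold change of -1.09, larger in size than that of Pkm, and Tsg101 beside Ldha was at 0.00. Spsb2 overlaps Tpi1 and Iffo1 overlaps Gapdh on the opposite strand, at 0.749 and 26.1 CPM in wild type. Whether the counting used strand is not given in the sources used here.

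**Figure D5:**
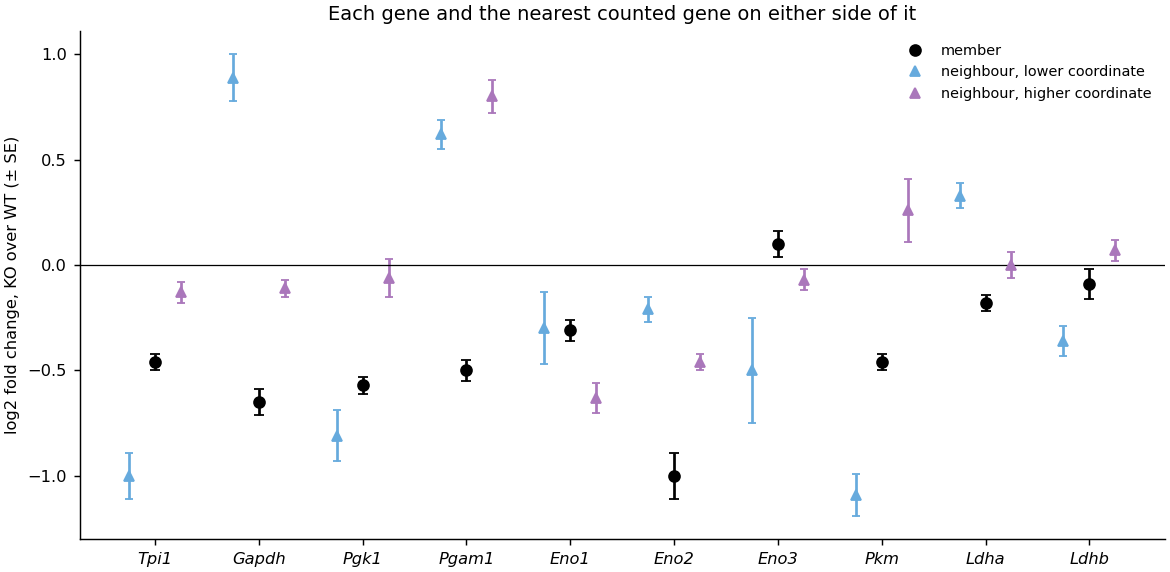
The log2 fold change of each of the 10 genes (circles) is plotted with its SE beside the nearest counted gene on either side of it (triangles). Called neighbours lie on both sides of 0, from -1.09 for Parp6 to 0.89 for Nop2.

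Upstream of the 10 genes, the steps from glucose to the triose phosphates moved the same way in most cases. Of 16 tested genes of upper glycolysis 10 were called lower, 3 higher and 3 not, with a median of -0.33. Over all genes tested 26.1% were called lower and 26.7% higher. The lists here and below were chosen with earlier results of these data known. The aldolases Aldoc (-0.95 ± 0.06) and Aldoa (-0.72 ± 0.06) and the isomerase Gpi1 (-0.74 ± 0.05) had the smallest adjusted p-values, 9.26e-06, 2.65e-05 and 2.28e-05 by edgeR. Of 8 tested genes for glucose and lactate transport, 6 were called lower and 2 higher. The glucose transporters Slc2a3 (-1.19 ± 0.05) and Slc2a1 (-0.87 ± 0.08) and Bsg (-0.86 ± 0.07), the partner of the lactate carriers, were among those that fell.

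Other genes draw on the intermediates or on pyruvate. Of 8 tested genes for side branches from the triose phosphates and phosphoglycerate, 7 were called higher and none lower, with a median of 0.32. The shares over all genes tested were 26.7% higher and 26.1% lower. Phgdh (0.62 ± 0.06) and Psph (0.40 ± 0.05) make serine from phosphoglycerate, and Gpd1l (0.54 ± 0.06) is a glycerol phosphate dehydrogenase. Of 16 tested genes for the mitochondrial and other uses of pyruvate, 6 were called higher (37.5%), 4 lower (25%) and 6 not, with a median of 0.05. Dlat (0.52 ± 0.05) and Pdhx (0.47 ± 0.06), subunits of pyruvate dehydrogenase, rose, and Pdk1, the kinase that inhibits that enzyme, fell (-0.63 ± 0.05).

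Regulators of these genes were split, with 8 called lower (53.3%), 5 higher (33.3%) and 2 not among 15. The shares over all genes tested were 26.1% lower and 26.7% higher. Myc read 132, 188 and 180 CPM in wild type, against 226, 249 and 227 CPM in KO, so every KO library was above every wild-type library. Its log2 fold change was 0.49 ± 0.11 (edgeR adjusted p = 0.00397). Hif1a, for the oxygen-regulated subunit of HIF-1, rose by 0.32 ± 0.06. Of their binding partners, Max fell by 0.71 ± 0.09 and Arnt by 0.36 ± 0.07. Arnt2, the other Arnt gene on this list, was called higher, by 2.15 ± 0.32. It stood at a low level, with a KO mean of 0.754 CPM against 0.169 CPM for wild type. Epas1, also on this list, was called higher by 0.63 ± 0.08. Egln3 (-0.70 ± 0.04) and Egln1 (-1.13 ± 0.08), prolyl hydroxylases that mark HIF for degradation, and Vhl (-0.91 ± 0.10), which recognises the mark, fell. All 14 genes of a list of other hypoxia-induced genes were called lower, against 26.1% of all genes tested. Their median was -1.08, and among them were Bnip3 (-1.0 ± 0.07), Ero1l (-1.24 ± 0.10) and Ndrg1 (-1.88 ± 0.15). This list, too, was chosen with earlier results of these data known. In the 8 alternatives run for this list, 12 or 13 of them were called lower. That list shares Pfkfb4 with upper glycolysis.

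Outside the lists, the genes whose pattern over the 6 libraries lay nearest to the mean of Tpi1, Gapdh, Pgk1, Pgam1, Eno1, Pkm and Ldha were found among 9426 candidates. Likeness was the root mean square difference of centred log2 CPM. The nearest were Anxa2 (0.014), Grap (0.022), Pik3c3 (0.022), Foxj2 (0.026) and Uqcrh (0.026). Anxa2, for an annexin, had a mean of 719 CPM in wild type, against 534 CPM in KO. Nearest to Ldhb were Acad10 (0.015), Acad8 (0.017) and Miip (0.018).

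Total counts ran from 24738017 to 34730475 per library. Dnm1l, which encodes Drp1, read 123, 117 and 117 CPM in wild type, against 92.6, 92.9 and 101 CPM in KO (log2 fold change -0.32 ± 0.05). The labels do not say which part was deleted, so reads from the rest of the gene may remain. The libraries were T cells by their markers: 10 T cell genes summed to 3470 to 3540 CPM (wild type) and 2960 to 3040 CPM (KO). Of these 10 genes, 8 were called lower. Among all genes tested 26.1% were called lower and 26.7% higher. In bulk RNA, fewer cells of a type and less RNA per cell cannot be told apart. Markers of gamma-delta T cells summed to 22.9 to 25.2 CPM in the wild-type libraries, against 55.3 to 62.8 CPM in those of KO (4 of 4 tested higher), those of NK cells to 16.2 to 23.1 and 33.8 to 40.5 CPM (3 of 3 higher; most of this sum was Eomes, which activated T cells also express, and Ncr1 was at 0.181 and 0.634 CPM), and those of platelets to 7.62 to 9.9 and 20.5 to 23.9 CPM (4 of 4 higher). B cell markers summed to 192 to 209 and 183 to 195 CPM (1 of 7 lower, 1 higher) and myeloid markers to 30.9 to 34.1 and 24.9 to 27.9 CPM (2 of 5 lower, 1 higher), with S100a8 and S100a9 at 0 throughout. Erythroid markers summed to at most 1.88 CPM. The part of these cell types in the changes of the 10 genes was not tested.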

How the data were processed

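RNA was measured in 6 libraries, 3 wild type and 3 Drp1 KO, grouped by sample label. Stranded poly(A) libraries were made from column-purified RNA, per the labels' protocols. Named in the submitters' processing notes, with no roles or order, are STAR 2.5.2, HTSeq 0.6.1, DESeq2 1.12, FastQC, Cufflinks and mm10. The authors deposited raw counts per gene symbol in 1 table of 45808 rows. Not given in the sources used here are the strand setting, the annotation release and the treatment of reads that match several places: near-identical copies, overlapping genes and antisense genes may share reads.

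The counts were tested with edgeR 4.0.16 in R 4.3.3: TMM factors (0.949 to 1.03), the filterByExpr filter (14209 genes kept, with 99.9% of counts), and the quasi-likelihood F test with Benjamini-Hochberg adjustment over all of them. Total counts of 24738017 to 34730475 put the floor of 3 counts at 0.0864 to 0.121 CPM by library totals, without TMM factors. Library pairs of a group differed by more than sampling noise (chi-square per gene 2.56 to 13.6), so each counted once. Shares within a library were compared by exact permutation tests. Intervals and floors cover the spread or counting error of these libraries only.

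Positions, transcript lengths and neighbours come from GENCODE on mm10, and promoter sequences from RefSeq. Copies were found with BLAST 2.17.0 against annotated transcripts: at least 90% identity (95% for coding genes) over at least 300 bases and 50% of the copy's length.

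The members and lists were chosen with earlier results of these data known. All 10 members are named. From each list of related genes the 3 with the smallest adjusted p are named, with Hif1a, Myc and Dnm1l; neighbours, copies and nearest patterns (genes of at least 5 CPM) follow fixed rules. The result of 1 gene that the rule names is not reported here. Ptbp1, Ddx3y, Pfkfb4, Max, Arnt, Arnt2, Epas1, Gapdhs, Eomes, Ncr1, the markers at 0, the isozymes at 0 and the Eno3 and Ldha per Gapdh ratios were named after their values were seen.

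Alternatives were other scalings, DESeq2 1.42.0, limma-voom (limma 3.58.1), other filters, the replicate block, each library left out, and copies added; leaving out other sex-chromosome genes and principal transcript lengths were added after seeing the data. Tested on simulated data of 14039 genes for this comparison, edgeR called 47.8% of the 67 genes given a log2 change of 0.3, 64.6% of the 65 given 0.6, and 92.2% of the 64 given 1, and made 17 calls among 13843 unchanged genes. Far fewer genes were given a change there than were called in the data, so these rates are not the power of this comparison. Plots used matplotlib 3.10.9 (Python 3.11.15).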

Additional observations from a re-analysis of the deposited data

How the results depend on the processing

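Of 390 values recomputed under an alternative, 384 kept their direction and their side of the threshold or moved little, and none reversed. The number of the 10 genes called lower was 8 in each alternative but library totals alone, where it was 7, with 1 called higher, a median of -0.39 and a median over all genes of 0.08. There Eno3 was called higher (0.18, edgeR adjusted p = 0.0393) and Ldha was not called (-0.10, adjusted p = 0.0523), and among the lists 2 related isozymes and 3 splicing factors were called higher. Over the 17 alternatives the Ldha fold change ran from -0.20 to -0.10 and its adjusted p from 0.000217 to 0.0523. Those of Eno3 ran from 0.06 to 0.18 and from 0.0393 to 0.35. Without wild-type replicate 1, 3 splicing factors were called higher and the Eno2 change was -0.90, and over the 6 fits that leave out a library Eno2 ran from -1.14 to -0.90. With the replicate number as a block, 8 of the 10 genes were lower, 0 higher, and the median was -0.46. The block made the edgeR adjusted p smaller for all 8 of these. It was 8.46e-07 against 3.49e-05 for Gapdh and 0.000662 against 0.00545 for Ldha. Same-numbered libraries correlated in their deviations by 0.17, 0.13 and 0.01. The labels do not say that the numbers pair libraries, so the main fit used no block. Whether same-numbered libraries share an effect was not tested. In simulated data of this size 47.8% of changes of 0.3 on the log2 scale were called. That simulation changed far fewer genes than were called here, and none by as little as the Eno3 or Ldhb estimates. It therefore gives no rate at which changes of their size would be called.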

Other observations

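Gapdh is often used as a reference gene for RNA levels, and a list of 12 common reference genes was read beside it. Of these, 6 were called higher in KO (50%), 2 lower (16.7%) and 4 were not called, with a median log2 fold change of 0.15. The shares over all genes tested were 26.7% higher and 26.1% lower. Gusb (0.93 ± 0.11), for a lysosomal glucuronidase, rose, and Rplp0 (-0.33 ± 0.05), for a ribosomal stalk protein, fell. Their edgeR adjusted p-values were 0.000121 and 0.000274. Actb, the other gene most used in this way and named here after its values were seen, had a mean of 2900.4 ± 225 CPM over the wild-type libraries and 3797.8 ± 201 CPM over those of KO (SD, n = 3 per group). Gapdh was at 2211.3 and 1409.1 CPM in the same libraries.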
